A study of Bos taurus with 12 samples.

Results

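The cells described here are cultured bovine chromaffin cells that received no treatment, measured on 3 of the 12 single-colour Affymetrix arrays of the series. The arrays were chosen by their titles, repeat 1, repeat 2 and repeat 3 of the untreated control. The other 9 arrays, in triplicates, held the same culture type after interleukin-6 (IL6, 10 nM, 24 h), human interferon alpha (IFNalpha, 1 nM, 24 h) or histamine (10 µM, 6 h). All 4 groups were labelled as cells from adrenal glands. The submitters call the triplicates technical repeats, and the labels do not say how many animals or cultures the RNA came from. The spread between the 3 arrays is therefore the spread of repeated measurements, and 3 arrays of 1 group allow no test of a difference between genes. No test was run, and every statement is a description of these arrays.

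Chromaffin cells are the neuroendocrine cells of the adrenal medulla. They make catecholamines from tyrosine, pump them into dense-core granules together with granins and peptides, and release the granule contents by calcium-triggered exocytosis when acetylcholine from the splanchnic nerve opens nicotinic receptors. A culture from a digested medulla can also hold cells of the surrounding cortex, endothelial cells, fibroblasts, mural cells, leukocytes and the glia-like sustentacular cells.

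The values are log2 RMA signals, in which 1 unit is a 2-fold difference. Probe sets, the groups of short probes that read 1 transcript region, could be assigned to 9155 named genes, and the brightest probe set stood for its gene. The median gene had a signal of 7.78, the quartiles were 5.88 and 9.25, and the range was 3.16 to 14.04. Genes from 10.48 upwards made up the brightest 10%, and genes up to 5.88 the dimmest 25%. By construction these classes held 9.99% and 25% of named genes, so that a list spread like all genes would have these shares. A rank orders signals and not numbers of transcripts, since probes differ in how strongly they bind. How far a signal depended on the probe set was read from the 2913 genes with several probe sets. Their brightest and dimmest probe sets differed by a median of 1.5 and by more than 1 for 63.8% of the genes. The causes of these gaps, probe binding among them, were not told apart. Among the 269 genes with several probe sets in the brightest 10% the median gap was 4.28. Genes enter this class by their brightest probe set, which in itself favours wide gaps. The other 6242 genes, among them PENK, CHGB, TH, DBH and PNMT, had 1 probe set, so that no choice between probe sets entered their rank.

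The 3 arrays had correlations of 0.9981 to 0.9986 across genes, which are not independent replicates, and 98 genes were in the top 100 on every array. Repeat 1 was the higher array for all 5 genes with a range of 1 or more, 3 of which were in the interferon-response list, as described further on. It also had the lowest signal of the 3 for all 18 probe sets of the spiked hybridisation controls, by a median of 0.15. None of the chromaffin or other cell markers below had a range of 1 or more between arrays, which only 5 of all 9155 named genes (0.0546%) had.

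Some genes of the secretory granule stood among the ribosomal proteins at the top of the ranking. PENK, which encodes proenkephalin, the precursor of the enkephalins, had signals of 13.90, 13.86 and 13.90 on the 3 arrays and ranked 3 of 9155. CHGB, the granule matrix protein chromogranin B, had 13.80, 13.76 and 13.77 and ranked 5. CHGA, chromogranin A, had 13.60, 13.65 and 13.60 and ranked 13. The 3 arrays differed by at most 0.05 for each of these genes, below the median range of 0.07 in the brightest 10%. Only EEF1A1, a translation elongation factor at 14.04 ± 0.06 (SD, n = 3), and the ribosomal protein gene RPS2 at 13.94 ± 0.01 (SD, n = 3) were brighter than PENK.

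Of the 30 brightest genes, 19 were in the ribosomal protein list. They included RPS15 (13.75), RPL37A (13.73), RPS3A (13.71), RPL5 (13.64) and RPS14 (13.63). Besides PENK and both chromogranins, the 30 held POMC, the precursor of corticotropin and endorphin, at 13.58, and GNAS, the stimulatory G protein alpha subunit gene, at 13.59. GNAS also gives rise to the granule protein NESP55, and the probe table does not say which of its transcripts each probe set reads. The iron storage gene FTH1 had 13.73. The remaining genes belonged to no list used here. They were RESP18, a protein of neuroendocrine dense-core granules (13.59, 13.61 and 13.61), CDK5R1, an activator of the kinase CDK5 (13.79), ITGB5, an integrin subunit (13.59), and RPS4Y1, which encodes a ribosomal protein of the RPS4 family (13.70). Of the 100 brightest genes, 52 were in the ribosomal protein list, 12 in the list of cytoskeletal and housekeeping genes and 23, RPS4Y1 among them, in no list.

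**Figure D1:**
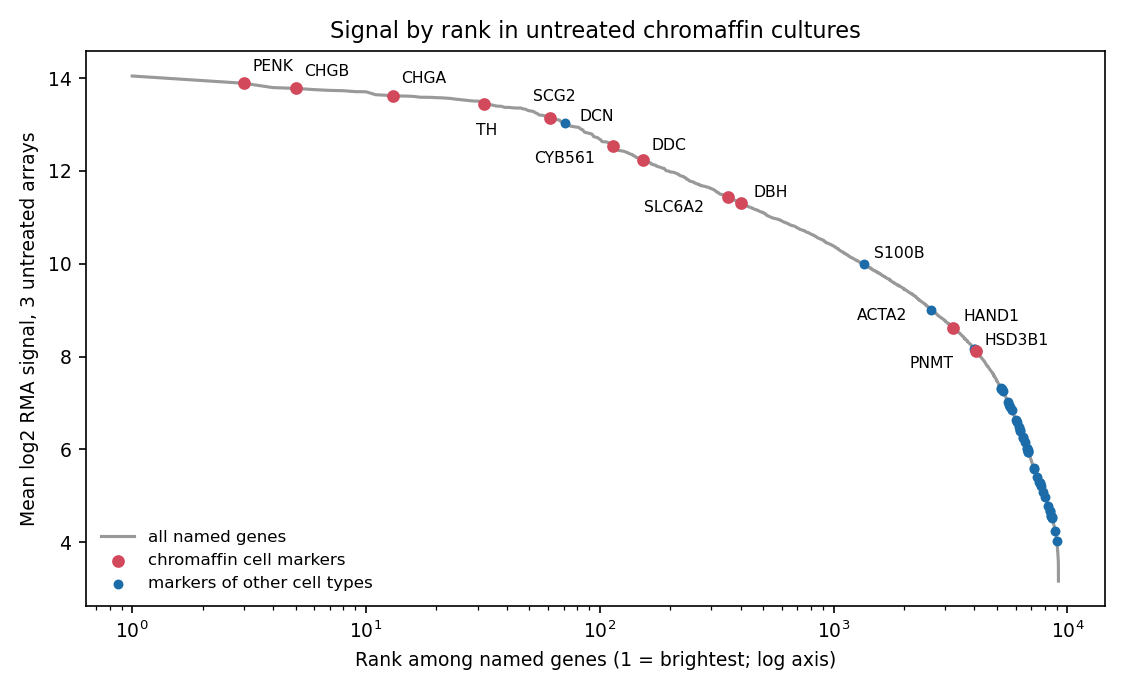
Mean log2 RMA signal over the 3 untreated arrays (vertical axis) against the rank of each of 9155 named genes (horizontal log axis, 1 is the brightest). Red points are the 11 measured chromaffin cell markers and blue points the 46 measured markers of other cell types, with DCN the blue point among the brightest 10%.

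Several of these ranks depended on which probe set was read. POMC had a second probe set at 9.01, ITGB5 a second at 6.40, and RPS4Y1 had others at 9.20 and 6.54. CDK5R1 had probe sets at 13.79, 13.53, 10.31 and 6.15. GNAS had 5 probe sets, the dimmest at 6.16. The 5 largest gaps in the brightest 10% were those of DDX5, an RNA helicase (12.69 against 4.01), PABPC1, ATP5F1A, RPS12 and YWHAE. CHGA kept a high signal on both of its probe sets, 13.62 and 12.02, while RESP18, PENK, CHGB and TH had no other probe set to compare.

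All 10 listed genes of catecholamine synthesis were measured, and 5 were in the brightest 10%. Their median was 10.12, and none was in the dimmest 25%. TH, tyrosine hydroxylase, the rate-limiting enzyme, had 13.45, 13.51 and 13.38 and ranked 32. DDC, which decarboxylates dopa to dopamine, had 12.21, 12.27 and 12.20 and ranked 153. DBH, which converts dopamine to noradrenaline inside the granule, had 11.51, 11.25 and 11.15 and ranked 403. Its range of 0.36 was the widest of the list, with repeat 1 the highest array. PNMT, which methylates noradrenaline to adrenaline, had 8.08, 8.06 and 8.22 and ranked 4078, close to the median of all genes.

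The genes that supply tetrahydrobiopterin, the cofactor of tyrosine hydroxylase, covered a wide range. The recycling enzymes QDPR and PCBD1 had 11.82 and 11.01 and were in the brightest 10%. The synthesis enzymes SPR and PTS, the latter named outside the naming rule, had 9.24 and 9.05. GCH1, the first enzyme of the cofactor's synthesis, had 6.45, 6.47 and 6.20 and was the dimmest of the list, next to its regulator GCHFR at 7.03. QDPR had a second probe set at 5.43, and the others had 1 probe set each.

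Of 11 genes of catecholamine storage, uptake and breakdown, 8 were measured, with a median of 10.28 and 4 in the brightest 10%. CYB561, the granule membrane cytochrome that passes electrons to ascorbate for DBH, had 12.57, 12.53 and 12.51 and ranked 114. SLC18A2, the vesicular monoamine transporter VMAT2, had 11.56, 11.45 and 11.48. SLC6A2, the plasma membrane noradrenaline transporter, had 11.42, 11.53 and 11.36, but its other probe sets read 8.52 and 5.38. The monoamine oxidases differed, MAOB at 9.80 ± 0.03 and MAOA at 7.03 ± 0.06 (SD, n = 3), which compares different probes. The aldehyde-clearing enzymes ALDH2 and AKR1B1 had 10.76 and 9.37, and the sulfotransferase SULT1A1 had 9.06. The transporters SLC18A1 and SLC22A3 were among those not named on the array here.

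The granins and the enzymes that process granule peptides had a median of 11.04, and 8 of the 13 measured genes were in the brightest 10%. After CHGB and CHGA came SCG2, secretogranin II, at 13.18, 13.10 and 13.13, SCG5, a chaperone of prohormone convertase 2, at 12.23, and SCG3 at 11.88. CPE, the carboxypeptidase that trims peptide precursors, had 11.49. The peptide amidating enzyme PAM, with 11.04, and the convertase inhibitor gene PCSK1N, with 10.66, are named outside the naming rule, with their values known. PAM had a second probe set at 4.75. The convertases themselves were lower. PCSK1 had 7.71 (also outside the naming rule), and PCSK2 had 4.62, 4.55 and 4.48, rank 8557, although its substrate PENK was among the brightest genes. CTSL, a protease of granules and lysosomes, had 4.80. PCSK1, PCSK2 and CTSL had 1 probe set each, so the measurement rests on that probe set.

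Peptides and hormones split into a few bright genes and many dim ones. Of 34 listed genes, 23 were measured. Only 4 were in the brightest 10% and 11 were in the dimmest 25%, with a median of 6.01. Below PENK and POMC came GAL, galanin, with 11.70, 11.64 and 11.65, and ADM, adrenomedullin, with 11.64, 11.64 and 11.61. No peptide gene lay between these and IGF1 at 7.91, which was the fifth. NMB had 7.05. At the lower end TAC1, the precursor of substance P, had 4.56 and EDN3 had 4.52. PDYN, prodynorphin, had the widest range of the list, with 4.89, 5.17 and 5.60. Neuropeptide Y was not named on the array here.

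Among the other granule genes, the proton pump that acidifies the granule was the most uniformly bright. Of 17 measured subunits and accessory proteins of the vacuolar ATPase, 12 were in the brightest 10%, with a median of 11.28. ATP6V1G1 had 12.37, ATP6V1E1 12.32, ATP6V1A 11.89, ATP6V1C1 11.62, ATP6V0D1 11.49 and ATP6V1D 11.46. The exception was ATP6V1B1, the B1 subunit known from kidney and inner ear, with 4.77, the only member in the dimmest 25%. ATP6V0A2 had 8.10.

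The exocytosis genes were more mixed. Of 44 listed, 25 were measured, with a median of 8.72 and 6 in the brightest 10%. ANXA2, an annexin of the granule docking site, had 12.58, 12.64 and 12.59. SYT11 and SYT4, of the synaptotagmin family, had 11.27 and 11.24, and SNAP25, the plasma membrane SNARE, had 11.06. VAMP3 had 10.60. The granule GTPase RAB27A had 10.55, whereas its paralogue RAB27B had 4.55, 4.56 and 4.57. The Rab effector RPH3A had 4.86.

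**Figure D2:**
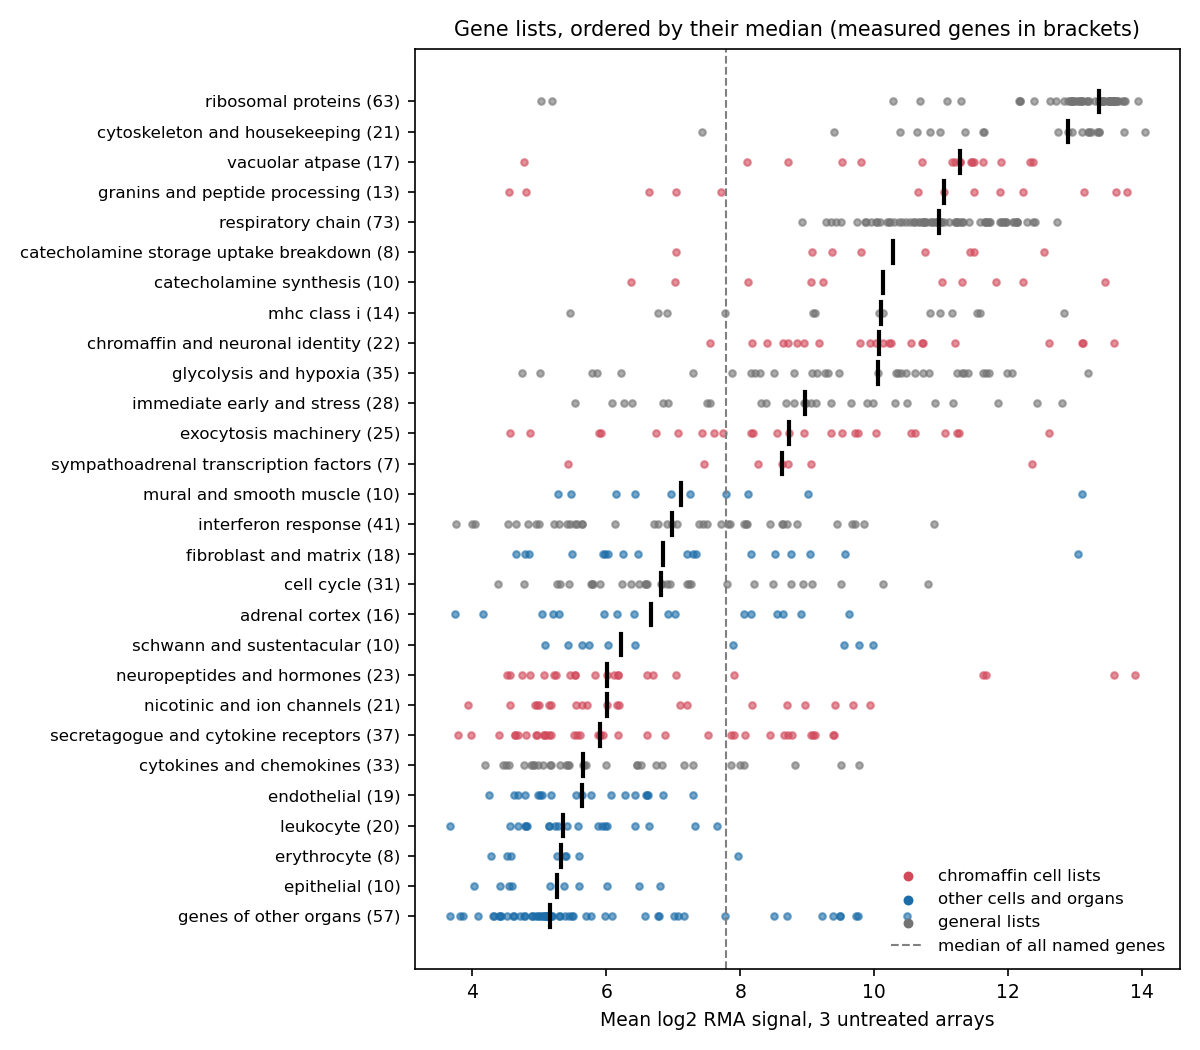
Mean log2 RMA signal (horizontal axis) of the measured members of each of 28 gene lists, ordered by list median (black bars), with red for chromaffin cell lists, blue for other cells and organs and grey for general lists. The 8 lists with the highest medians included the vacuolar ATPase, the granins and both catecholamine lists, while the lowest were genes of other organs.

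Channels and receptors were low by comparison. Of 21 measured nicotinic and ion channel genes none was in the brightest 10% and 10 were in the dimmest 25%. The median was 6.01. The brightest were CLCN3, an intracellular chloride transporter (9.93), CACNB3, a calcium channel beta subunit (9.69), and KCNMA1 and KCNMB4 of the BK potassium channel (9.42 and 8.97). CHRNA3, the nicotinic subunit of autonomic ganglia, had 8.80, 8.72 and 8.57, and CHRNA5 had 8.22, 8.16 and 8.16. CHRNB2, the beta subunit typical of brain, had 3.94 ± 0.13 (SD, n = 3), the lowest of the list. CACNA2D1 had 4.56.

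Of 37 measured receptor genes for secretagogues, hormones and cytokines, none was in the brightest 10%, 18 were in the dimmest 25%, and the median was 5.90. P2RX4, an ATP-gated channel, had 9.40, and IFNGR2, a chain of the interferon gamma receptor, had 9.38. AGTR1, the angiotensin II receptor, had 9.12, TNFRSF1A 9.09, the glucocorticoid receptor NR3C1 9.05 and the melanocortin receptor MC4R 8.77. The prostaglandin receptors PTGER4 and PTGER2 had 3.98 and 3.79. Receptors for the 3 agents used elsewhere in the series are given although the naming rule did not include them. HRH1, the H1 histamine receptor, had 8.74, 8.68 and 8.71. IL6R, the IL6-binding chain, had 6.14, 6.25 and 6.14, and its signalling partner IL6ST was not named on the array here. IFNAR2 had 7.95, 7.86 and 7.79, and IFNAR1 had 5.25, 4.96 and 5.01.

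Of 21 transcription factor genes of the sympathoadrenal lineage only 7 were measured. PHOX2A and GATA3 were not among them. EPAS1, the hypoxia-inducible factor HIF-2 alpha, was the brightest, with 12.39, 12.35 and 12.31, and a second probe set at 8.30. EGR1 had 9.06, MEIS1 8.71, HAND1 8.62, LMO4 8.26, SOX4 7.45 and TFAP2A 5.43. Genes of chromaffin and neuronal identity had a median of 10.08, with 8 of 22 in the brightest 10% and none in the dimmest 25%. UCHL1, a neuronal deubiquitinase, had 13.12, STMN2, a microtubule regulator of neurons, 12.62, the tau gene MAPT 11.21 and RTN1 10.73. MAPT had 4 probe sets, the dimmest at 4.18. RGS5, a regulator of G protein signalling, had 13.13, 13.08 and 13.10. It is listed both here and among mural cell genes, and this signal does not separate the sources. DLK1 was the dimmest, with 7.54.

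The labelled cell type was then set against markers of the other cells such a culture could hold. Of 16 chromaffin markers 11 were measured, and those not measured included SLC18A1, NPY, PHOX2A and GATA3. The median of the measured markers was 12.54, and 9 of the 11 were in the brightest 10%. Of 49 markers of 8 other cell types 46 were measured. Their median was 6.02, 1 was in the brightest 10% and 18 were in the dimmest 25%. The median difference was 6.51 ± 0.02 (SD, n = 3 arrays), with values of 6.53, 6.49 and 6.51 on the arrays. The markers of each type were chosen as its well-known abundant genes, so the difference reads probes and gene choice together with cell content. In bulk RNA, fewer cells of a type and less RNA per cell cannot be told apart.

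Adrenal cortex markers had a median of 6.28, below the chromaffin median by 6.40, 6.12 and 6.25 on the arrays. HSD3B1, a steroid dehydrogenase, was the brightest at 8.22, 8.12 and 8.15, and thus level with PNMT. CYP11A1, which starts steroid synthesis, had 7.03, CYP21A2 6.92, NR5A1, the factor SF-1, 6.41, CYP17A1 6.16, STAR, the cholesterol carrier, 5.96, the corticotropin receptor MC2R 5.29 and CYP11B1 5.20. In the wider cortex list of 16 measured genes none was in the brightest 10%. FDX1, a mitochondrial electron carrier also used outside steroid synthesis, led it with 9.63, followed by NR0B1 (8.91), SCARB1 (8.64), SOAT1 (8.55) and INHA (8.05), and AKR1C3 was lowest with 3.74.

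Endothelial markers ranged from 4.25 (KDR) to 7.29 (EMCN), with PECAM1 at 6.28, CDH5 at 6.84 and VWF at 4.67. Leukocyte markers ranged from 4.56 (PTPRC, the pan-leukocyte antigen CD45) to 7.32 (CD14). Haemoglobin genes HBA and HBB had 4.52 and 5.27, and the epithelial gene EPCAM had 4.03. Of these 4 cell types, all markers lay below every measured chromaffin marker. Among smooth muscle and mural markers ACTA2 had 9.01, TAGLN 8.12 and MYH11 5.27.

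A single marker of another cell type, DCN, lay above the chromaffin median of 12.54. S100B, ACTA2, HSD3B1 and COL1A2 also lay above PNMT, the dimmest chromaffin marker, and the first 2 of them above HAND1 as well. DCN, the matrix proteoglycan decorin of fibroblasts, had 13.08, 13.00 and 13.03 and ranked 71, brighter than 6 of the 11 chromaffin markers. The other fibroblast markers did not share this level. COL1A2 had 8.16, COL3A1 7.30, COL1A1 6.25, LUM 6.02, POSTN 5.98 and PDGFRA 5.95. DCN had 1 probe set, and which cells gave its signal was not tested. S100B, a marker of sustentacular and Schwann cells, had 9.97, 9.96 and 10.02, and the glial list also held CRYAB at 9.78, ALDH1A1 at 9.54 and FABP7 at 7.89. The glial transcription factor SOX10 had 5.09 and GFAP 6.02. Of the 6 markers of this type, 3 were measured.

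**Figure D3:**
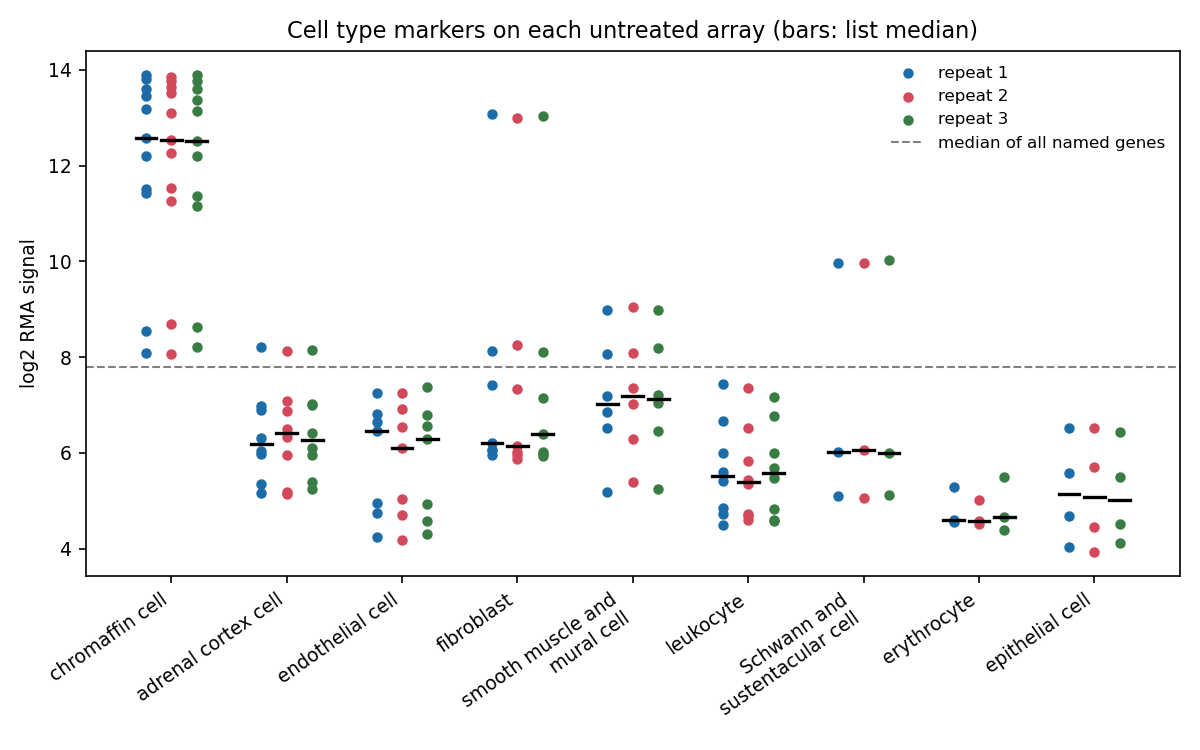
log2 RMA signal of each measured marker (points) on the 3 untreated arrays (colours), grouped by cell type, with the list median as a black bar and the median of all named genes as a dashed line. Chromaffin medians were 12.57, 12.53 and 12.51, and the isolated points high above their types are DCN among fibroblast markers and S100B among Schwann and sustentacular markers.

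A measured background came from 57 genes of other organs, such as milk proteins, pituitary hormones and muscle proteins. Their median was 5.16, 39 were in the dimmest 25% and 1 was in the brightest 10%, but their upper tail was long. The 90th percentile was 9.29, a level that 24.5% of all named genes passed, and the 75th percentile was 6.77, which 64.1% passed. By the 90th percentile, 9 of 11 chromaffin markers were above the background signals, and PNMT and HAND1 were within them. Of the other cell markers, DCN and S100B were above it.

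The tail was made up of genes with several probe sets. All 9 organ genes above the median of all genes had several, and each had a probe set at 5.06 or lower. CKM, muscle creatine kinase, had 10.49 against 5.06, GH1, growth hormone, had 9.48 against 5.94 for the next of its 6 probe sets, and CSN2, beta-casein, had 9.22 against 5.50. ALB, albumin, had 9.76 and 9.69 on its brightest 2 and 3.75 on the dimmest of 9. MYH7 (9.73), AHSG (9.49) and PRL (9.38) also belonged to this tail. The 35 organ genes with 1 probe set reached only 7.77, the value of the pancreatic trypsinogen gene PRSS2. CSN2 and PRSS2 were named after their values were seen.

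Set against that level, genes with 1 probe set could be read without the choice of a brightest one. Of all 6242 such genes 48% lay above it. All 9 chromaffin markers with 1 probe set did, PNMT and HAND1 included, and so did 11 of 12 vacuolar ATPase genes, 7 of 9 catecholamine synthesis genes and all 14 genes of chromaffin and neuronal identity. GCH1 and GCHFR did not. Neither did any of the 11 endothelial, 12 leukocyte or 8 epithelial list genes with 1 probe set. Other lists of non-chromaffin cells held genes above it, with 4 of 5 in the Schwann and sustentacular list, 4 of 8 in the mural and smooth muscle list, which includes RGS5, and 4 of 9 in the fibroblast and matrix list. In the cortex list 5 of 11 did, close to the share of all genes, and among its defining markers HSD3B1 did so. Of the nicotinic and ion channels 4 of 13, of the receptors 7 of 23 and of the peptides and hormones 3 of 18 passed, below the share of all genes. Of the catecholamine storage, uptake and breakdown genes 5 of 6 passed. So did 6 of 10 granin and processing genes, 8 of 14 exocytosis genes and 3 of 5 transcription factors. Passing was not particular to chromaffin genes. All 55 respiratory chain genes, 47 of 48 ribosomal protein genes and 16 of 17 cytoskeletal and housekeeping genes also passed. This comparison was chosen after the values were seen.

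General programmes gave the scale for these levels. Ribosomal protein genes had a median of 13.35, with 60 of 63 in the brightest 10%. The exceptions below 6 were RPS19 (5.19) and RPL37 (5.02), whose products are present in every ribosome. A low signal on this array is therefore no measure of a missing transcript. Cytoskeletal and housekeeping genes had a median of 12.90, with ACTG1 at 13.36, TPT1 at 13.35, TMSB10 at 13.33 and ACTB at 13.24, and respiratory chain genes had 10.97, with 54 of 73 in the brightest 10%. Genes of glycolysis and hypoxia had a median of 10.06. GAPDH had 13.19, PGAM1 12.05, PGK1 11.98, ENO1 11.67 and HIF1A, the hypoxia-inducible factor, 11.72.

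Immediate early and stress genes had a median of 8.97 without any stimulus. The chaperone genes HSPA8 and HSPA5 had 12.80 and 12.44, and the AP-1 genes JUND and JUN had 11.85 and 11.17. The dimmest probe sets of HSPA5, JUND and JUN read 6.11, 4.77 and 5.24. NR4A1, an early gene of depolarised cells, had 6.08 and FOSL2 had 5.54. Cell cycle genes had a median of 6.81. The cyclin gene CCND2 had 10.80 and PCNA, a replication clamp also used in repair, had 10.13, while the mitotic genes CCNB1 and BUB1 had 4.38 and 4.77. Of 33 cytokine genes none was in the brightest 10% and 19 were in the dimmest 25%. CXCL5 was the brightest at 10.00, 9.79 and 9.54, MIF had 9.50 and CCL2 8.82, whereas IL6 itself had 4.56, 4.42 and 4.37. In the MHC class I list B2M had 12.83 and CALR 11.58, and the immunoproteasome subunits PSMB9 and PSMB8 had 6.76 and 5.46.

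The arrays agreed closely. The median SD of a gene was 0.06, and it fell from 0.09 in the ninth of 10 level classes to 0.04 in the brightest class. The median range was 0.12, and 95% of genes had a range of at most 0.31. Few genes at the top and many in the middle of the ranking lay closer together than the spread between arrays, which leaves out the larger differences between probe sets of the same gene. Near rank 10, 1 other gene lay within 1 median SD of its neighbours' spread, near rank 100 it was 3 genes, near rank 1000 it was 70 and at rank 4578, the middle of the ranking, 174. The signals of PENK, CHGB and CHGA did not overlap on the 3 arrays (SD 0.02 to 0.03), whereas those of PNMT and HSD3B1, at 8.12 ± 0.09 and 8.16 ± 0.05 (SD, n = 3), did.

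Only 5 of 9155 genes, 0.0546%, had a range of 1 or more, and repeat 1 was the highest array for each. RSAD2, which encodes the antiviral enzyme viperin, had 7.16 on repeat 1 against 4.79 and 4.72 on the others. EIF2AK2, the double-stranded RNA-activated kinase PKR, had 7.97 against 6.00 and 6.16. LOC100298356 had 7.04 against 5.93 and 5.87. ISG15, an interferon-induced ubiquitin-like protein, had 8.78 against 7.82 and 7.66, and CEMIP2, a cell surface protein that binds hyaluronan, had 5.35 against 4.34 and 4.47. Without repeat 1 no gene had a range of 1 or more. The second probe set of EIF2AK2 did not show this, with 6.54, 6.77 and 6.76, while that of LOC100298356 had 5.69, 5.15 and 5.01.

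**Figure D4:**
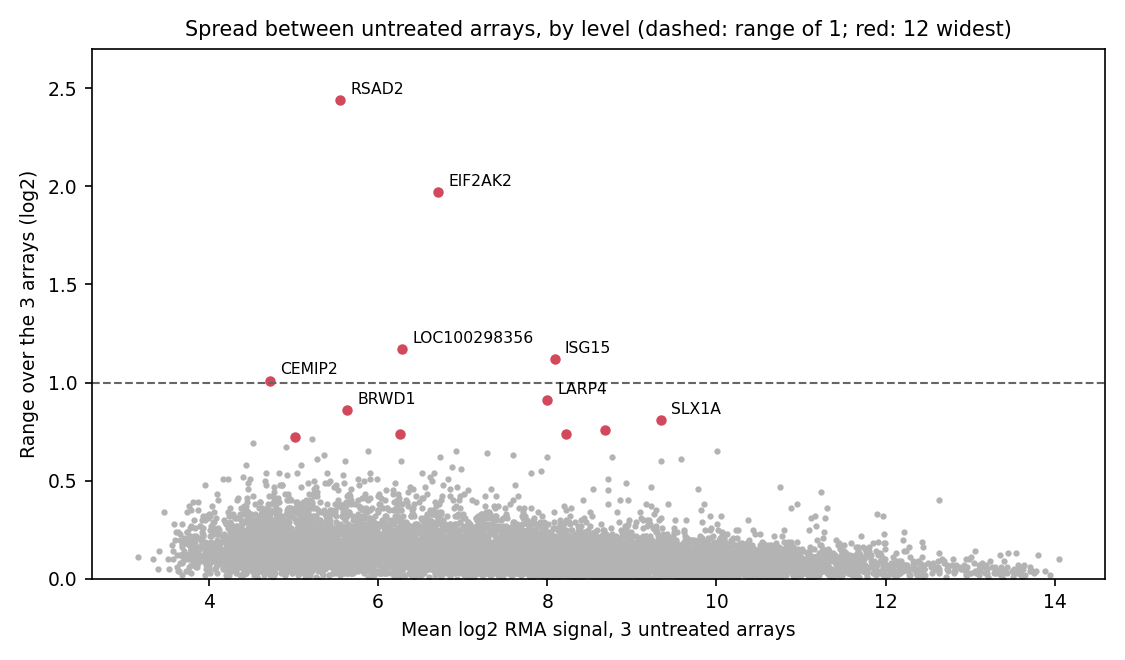
Range over the 3 untreated arrays (vertical axis, log2) against mean log2 RMA signal (horizontal axis) for 9155 named genes, with the 12 widest in red. The 5 genes above the dashed line at 1 reach from 1.01 for CEMIP2 to 2.44 for RSAD2.

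At a range of at least 1.5-fold there were 29 genes, 0.317% of those named. Repeat 1 was the array apart and the higher one for 12 of them, of which 3 were in the interferon-response list, and repeat 3 for 10. The latter included SLX1A (9.03, 9.16 and 9.84), EPB42 (4.79, 4.77 and 5.49), SLC35A5 and URAD. LARP4, an RNA-binding protein, was highest on repeat 2 with 7.57, 8.48 and 7.94, and so was CERT1 with 7.92, 8.66 and 8.08. BRWD1 had 5.99, 5.13 and 5.78. USP53, ABCF3, ATP2B2 and PIK3CA were highest on repeat 1, with signals there of 9.18, 6.64, 4.98 and 7.34. CCNT1 was lowest on repeat 1, and the chemokine CXCL2 had 7.58, 7.35 and 6.94.

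Of 41 measured interferon-response genes 24 were highest on repeat 1, or 58.5%, against 28.6% of all named genes. The list medians were 7.36, 6.96 and 6.82. This share was not particular to that list. It was 10 of 19 genes (52.6%) in the endothelial list, 9 of 18 (50%) in the fibroblast and matrix list, 5 of 7 (71.4%) among the fibroblast markers and 5 of 7 among the transcription factors, and the median excess on repeat 1 was 0.095 in the endothelial list and 0.105 in the interferon list. Without the 3 genes with a range of 1 or more, RSAD2, EIF2AK2 and ISG15, it was 21 of 38 genes, or 55.3%, and their median excess on repeat 1 was 0.085. Below these 3 genes came USP18, an ISG15 protease, with 7.36, 6.80 and 6.80, and MX1, an antiviral GTPase, with 8.12, 7.74 and 7.58, both named after their values were seen. The dimmer probe sets of USP18 were also highest on repeat 1, the widest with 6.87, 5.89 and 5.93. A range under 0.2 was seen for 26 of the 41 genes, a smaller share than the 7284 of all 9155 named genes. IFITM1 had 10.85, 10.92 and 10.91, NMI 9.45, 9.46 and 9.44, and IFIT5 9.95, 9.82 and 9.78. The upper end of the list also held IFI6 (9.71), PARP12 (9.66) and ZNFX1 (8.84), and its lowest genes were SAMD9 (3.99) and HERC6 (3.75). Some of the high levels depended on the probe set. IFITM1 had a second at 5.17, ZNFX1 a second at 4.78, and PARP12 others at 6.47, 4.95 and 4.13, while NMI had a second at 8.60. The hybridisation controls were lowest on repeat 1, and their part in the interferon result on that array was not tested.

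**Figure D5:**
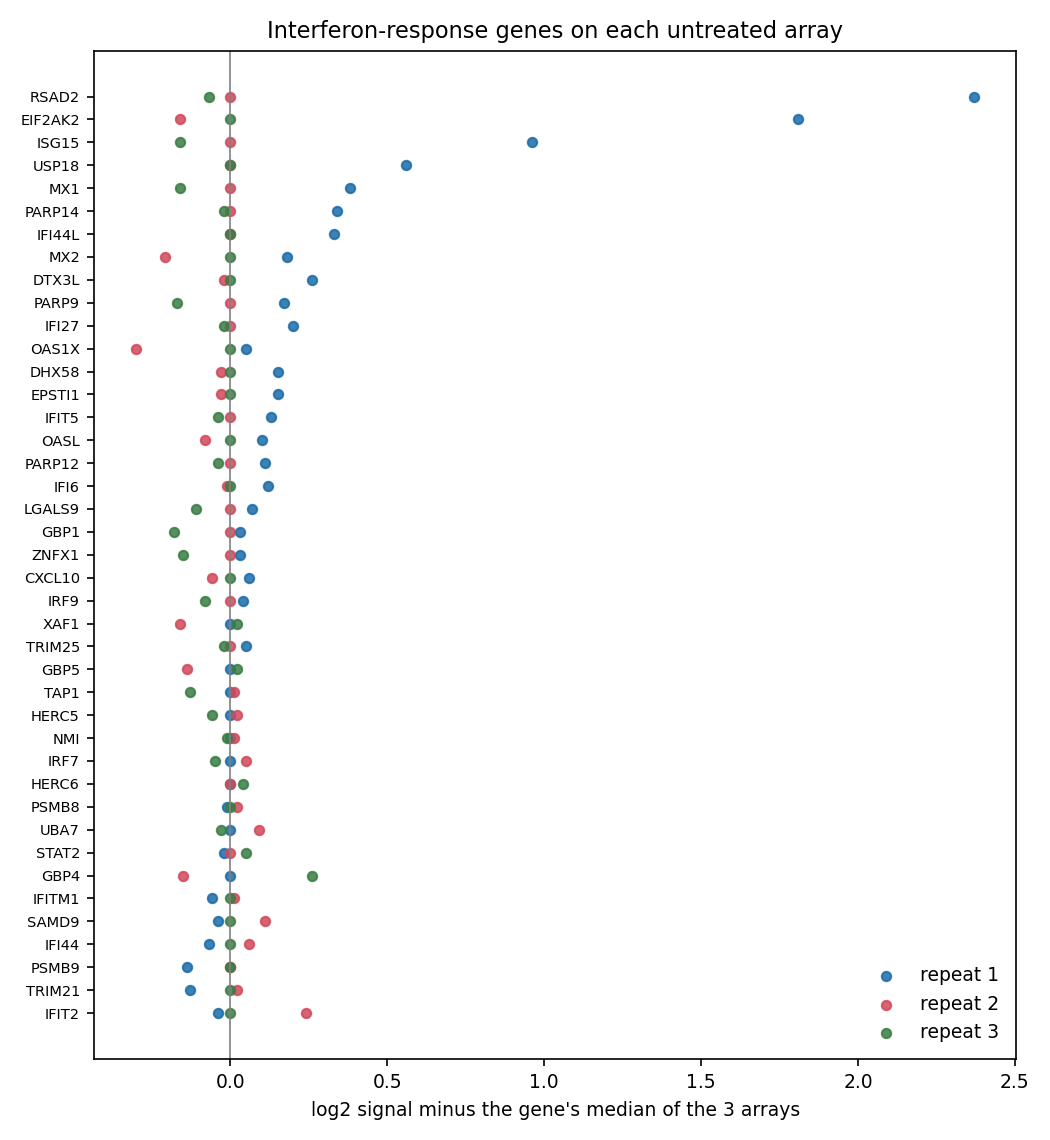
log2 signal of 41 interferon-response genes (rows) minus the gene's median of the 3 arrays (horizontal axis), one point per untreated array. Repeat 1 lies far to the right for RSAD2, EIF2AK2 and ISG15. Of the 41 genes 26 span less than 0.2, a smaller share than the 7284 of all 9155 named genes.

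Respiratory chain genes differed between arrays in another way and by far less. Repeat 2 was the highest array for 48 of 73 genes, or 65.8%, against 38.3% of all named genes, with list medians of 10.94, 11.00 and 10.95. No gene of that list had a range above 0.21. Repeat 2 was also the highest array for 10 of 14 genes (71.4%) of the MHC class I list.

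The other triplicates of the series were less tight than the untreated one. A range of 1 or more was seen in 5 genes within the untreated triplicate, 44 within the IL6 triplicate, 37 within the IFNalpha triplicate and 12 within the histamine triplicate. The median ranges were 0.12, 0.15, 0.14 and 0.14. Of the 5 genes that were wide among untreated arrays, none was so within IL6 and 1 was so within each of IFNalpha and histamine. It was EIF2AK2 both times, on the same probe set, with ranges of 1.87 within IFNalpha and 1.14 within histamine. A wide range of this probe set was therefore not particular to the untreated arrays. With 1 triplicate a group, these counts describe the arrays and were not tested.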

How the data were processed

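The authors deposited log2 values of 24128 probe sets on 12 arrays. The tool was RMA, per the submitters' processing notes. Such values are background-corrected, brought to a common distribution and summarised over the probes of a set, and differences of dim transcripts come out compressed. The sources used here give neither the RMA version nor a genome build.

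From the deposited values 112 control probe sets were dropped. The platform annotation left 10638 of the others unnamed and 86 with several symbols, and the 13292 with 1 symbol were used, 13263 of them matched by gene identifier in a cattle gene table. A gene's level is the mean over the 3 untreated arrays of its brightest probe set. SDs are over these arrays. The range is the highest minus the lowest array.

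The arrays, members and 28 gene lists were chosen with earlier results of these data known. Named were the 30 brightest genes, the 6 brightest and 2 dimmest of each list, the cell type markers, the 20 genes of widest range and the 5 genes of the brightest 10% whose probe sets differed most. Not every gene so named is printed, and genes outside the rule are marked. Scripts used pandas 2.3.3, numpy 2.4.6 and matplotlib 3.10.9 in Python 3.11.15. The counting of wide genes was tested on simulated data with large built-in shifts, which checks the code and not the genes found. Alternatives were other probe set choices, other background levels and range limits, further normalisation and leaving out each array.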

Additional observations from a re-analysis of the deposited data

How the results depend on the processing

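No paired analysis was possible because the values come from no test between groups. Leaving out each array in turn kept the chromaffin minus cortex difference between 6.19 and 6.32. The count of genes with a range of 1 or more lay between 0 and 4, and it was 0 without repeat 1. With the mean of all probe sets, that difference was 6.48, the difference to all other markers 6.71, the 90th percentile of organ genes 6.77 and the count of wide genes 3. With probe sets not marked as sharing probes, these were 6.03, 6.21 and 8.37 for the first 3. With genes of 1 probe set, chosen after seeing the data, they were 5.62, 6.55 and 6.69. Other background levels were 9.54 (95th percentile), 6.77 (75th percentile, added later) and 4.21 (the brightest of 3 Trpn controls, a bacterial transcript). The count of 5 wide genes became 29 at 1.5-fold, 1 at a range of 2, 0 above the background level, 11 over all probe sets (added later), 5 after centring and 4 after quantile normalisation. The mean of all probe sets lowered the medians of 27 of the 28 lists, by up to 1.06. With genes of 1 probe set 15 list medians fell, by up to 1.26, and 13 rose, by up to 3.32, the latter in the Schwann and sustentacular list (from 6.22 to 9.54). Between 26 and 27 interferon genes were highest on repeat 1 with the mean of all probe sets, after centring and after quantile normalisation, against 30.2%, 37.8% and 33.2% of all named genes.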

Other observations

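Outside the named genes, 4 probe sets with no gene symbol had a range of 1 or more over the untreated arrays. Their highest array was repeat 1 for 2 of them, repeat 2 for 1 and repeat 3 for 1. Dimmer probe sets of NT5E, an ecto-nucleotidase (5.64, 4.59 and 4.5), and of ENTPD5, an endoplasmic reticulum nucleotidase (5.25, 4.77 and 5.80), passed the same limit, so that 11 of 24016 probe sets did in all. These were singled out by their values.

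Control probe sets read the 3' and the 5' end of 6 transcripts. The difference between the ends had a range over the arrays of 0.06 for GAPDH to 0.32 for GST, where it was 0.13, -0.09 and -0.19. For GAPDH the 3' end was higher by 0.14, 0.13 and 0.08, and for actin by 1.04, 1.05 and 1.25. It was higher by 1.44, 1.5 and 1.4 for cyclophilin and by 2.05, 1.98 and 1.97 for eIF-4E. For ef1a the 5' end was the higher one, with differences of -1.68, -1.75 and -1.8. The spiked poly-A controls, which are added before labelling, were lowest on repeat 1 for 2 of 24 probe sets and highest for 6.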
